A study of Mus musculus with 4 samples.

Results

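The miRNAs miR-99a, miR-99b, miR-100, miR-125a and miR-125b were measured in synovium, the lining tissue of joints, of mice by real-time PCR with TaqMan probes. Assays were taken by name, in any arm and species spelling, with star strands left out. This gave 7 of the 750 miRNA assays: mmu-miR-99a, mmu-miR-99b and mmu-miR-100 on chip A4, mmu-miR-125a-5p, mmu-miR-125b-5p and mmu-miR-125a-3p on chip A2, and mmu-miR-125b-3p on chip A3. The prefix mmu marks the mouse and is left out for these from here on where no other species is meant. The study used the K/BxN serum transfer model, in which serum of arthritic K/BxN mice brings on arthritis in recipients, here C57BL/6J mice. Non-arthritic synovium of day 0, called baseline here, came as 2 pools of 3 mice each. Arthritic synovium of day 10, when inflammation peaks, called inflamed here, came as 2 pools of 10 mice each. The labels give K/BxN as the serum source strain of all 4 pools, those of day 0 included, and place the dissection around the tibiotalar joint of the ankle. Each pool was read in 2 wells per assay.

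MicroRNAs are short RNAs that lead the silencing machinery to messenger RNAs, mainly through bases 2 to 8, the seed. The miR-99 and miR-100 family is known for repressing the growth kinase mTOR. miR-125 is the mammalian relative of lin-4, the miRNA that times development in Caenorhabditis elegans, and miR-125b is known for roles in blood cell formation and in macrophage activation. In mammals the genes of both families lie together with let-7 genes in shared clusters. Each hairpin precursor yields a 5′ arm and a 3′ arm, and here the 5′ arm is the one usually kept.

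The mature sequences, from RefSeq on build GRCm38.p6, are shown because the members fall into 2 seed groups and differ by few bases elsewhere. Capitals mark the seed.
miR-99a-5p: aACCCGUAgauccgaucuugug
miR-100-5p: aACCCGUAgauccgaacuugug
miR-99b-5p: cACCCGUAgaaccgaccuugcg
miR-125a-5p: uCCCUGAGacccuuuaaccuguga
miR-125b-5p: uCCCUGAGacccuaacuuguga
miR-351-5p: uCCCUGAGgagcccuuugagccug
Counted from the 5′ end, miR-100 differs from miR-99a at 1 of 22 positions (U16A) and miR-99b differs from miR-99a at 4 (A1C, U11A, U16C and U21C). miR-125a-5p and miR-125b-5p share their first 13 bases. Among the mature mouse miRNAs of the table, 3 carry the seed of miR-99 and 5 that of miR-125, of which only miR-351-5p was also on the chips. How far the assays of near-identical miRNAs read each other was not tested.

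The miRNAs come from 3 clusters, all on the plus strand, each with 1 miR-99 or miR-100 gene, 1 let-7 gene and 1 miR-125 gene. On chromosome 16, miR-99a lies at chr16:77598940-77598961 beside let-7c-1 and the second copy of miR-125b at chr16:77646279-77646300. On chromosome 9, miR-100 at chr9:41531437-41531458, let-7a-2 and the first copy of miR-125b at chr9:41581940-41581961 lie within the long noncoding gene Mir100hg. On chromosome 17, miR-99b at chr17:17830194-17830215, let-7e and miR-125a-5p at chr17:17830817-17830840 lie within the protein-coding gene Spaca6. The miR-125b-5p assay reads a sequence that both copies share.

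Ct is the PCR cycle in which the signal becomes detectable, and it drops by 1 when the starting RNA grows 2 times, at full efficiency. The highest Ct recorded was 26.997, and wells without amplification gave none. The pools were unlike in quality: 294 and 287 of the 750 assays gave a Ct in baseline pools 1 and 2, 271 in inflamed pool 1 and 223 in inflamed pool 2. The median Ct of panel A, which holds all 7 assays, was 12.6 and 12.8 in the baseline pools, 12.5 in inflamed pool 1 and 15.9 in inflamed pool 2. Duplicate wells had an SD of 0.883, 1.04, 0.761 and 1.47 cycles in the same order. Levels are the panel median of a pool minus the Ct, in log2 units. They were compared over the 209 assays with a Ct in all 4 pools. A level is read between pools for 1 assay, and Cts of different assays do not rank the miRNAs by amount. In such bulk tissue, fewer cells of a type and less RNA per cell cannot be told apart.

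Of the 7 assays, 5 gave a Ct in all 8 wells and were tested: miR-99a, miR-99b, miR-100, miR-125a-5p and miR-125b-5p. The other 2 read the 3′ arms. miR-125a-3p gave a Ct in 6 wells and miR-125b-3p in 1. All 5 tested assays had a higher mean level in the inflamed pools, as had 110 of the 209 assays. In mean raw Ct, miR-100 and miR-125a-5p came 0.18 and 0.67 cycles later in the inflamed pools, and miR-99a 0.21 cycles earlier. The higher levels of these miRNAs thus came mostly from the panel medians. By limma 0 of 5 passed at 0.05, with p adjusted after Benjamini and Hochberg over the 209 assays. Of all assays 21.5% passed, 9.57% as higher. At an adjusted p under 0.10, 2 of 5 passed, mmu-miR-99b and mmu-miR-125b-5p, beside 37.8% of all assays, and the same 2 had an unadjusted p under 0.05, as had 92 of the 209. Without inflamed pool 1 the log2 changes were 1.92 for miR-99a, 4.32 for miR-99b, 1.82 for miR-100, 2.26 for miR-125a-5p and 4.12 for miR-125b-5p. Without inflamed pool 2 they were 1.49, 2.10, 0.82, -0.60 and 1.70 in the same order. Calls are not given for these fits, since their spread comes from the 2 baseline pools alone. Levels differed by a median of 0.52 between the baseline pools and of 1.38 between the inflamed pools. Both inflamed pools lay above both baseline pools for 4 of 5 members, the exception being miR-125a-5p, against 39.2% of all 209. The median log2 change was 1.71 over the members and 0.19 over all 209 assays. Relative to U6 and the 2 snoRNAs, with which the median over all assays was -2.17, the members' median was -1.04.

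**Figure D1:**
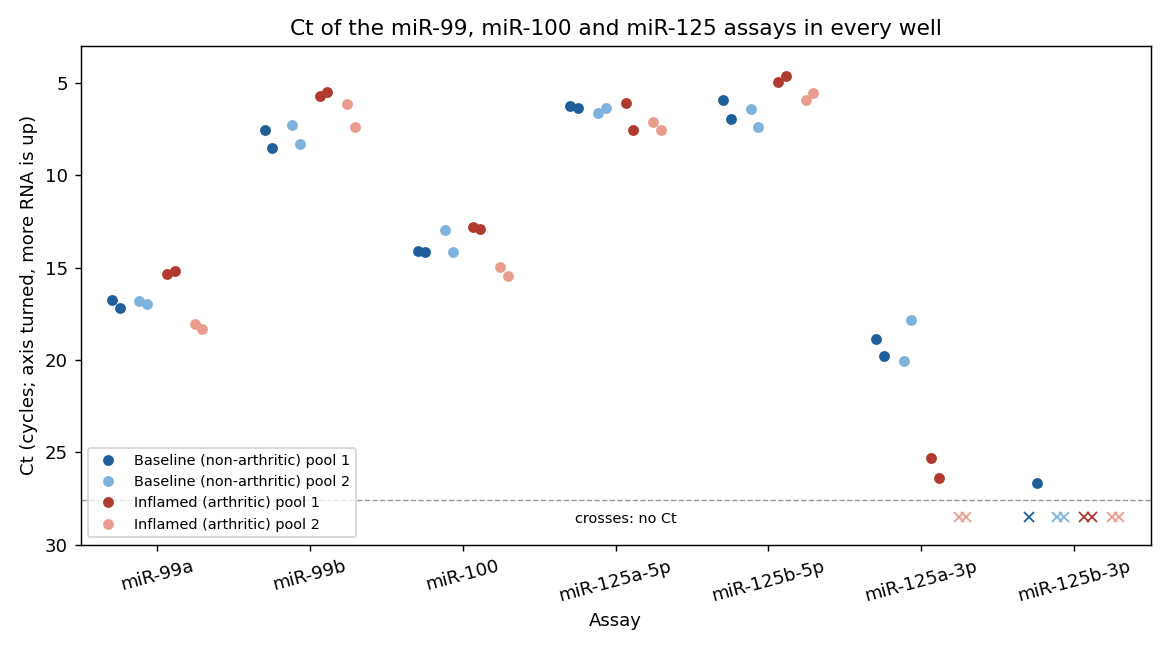
Ct in cycles, on a turned axis so that more RNA is up, for the 7 assays, with 1 point per well and 2 wells per pool. Crosses under the dashed line are wells without a Ct, found only for miR-125a-3p and miR-125b-3p.

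miR-99b stood highest among the members in its change. Its Ct was 8.04 and 7.79 in baseline pools 1 and 2, and 5.63 and 6.77 in inflamed pools 1 and 2. Both inflamed pools thus crossed the threshold earlier than either baseline pool before any normalization, as did 12.9% of the 209 assays. The mean level was 4.81 ± 0.30 at baseline and 8.02 ± 1.57 in inflamed tissue (SD, n = 2 pools each). This was a log2 change of 3.21 ± 0.97 (SE, adjusted p = 0.0651 by limma), or 9.26-fold. It ranked 22nd of 209 by log2 change, from the highest. The change was above 0 under all 8 other normalizations tried, from 0.36 with U6 alone to 3.73 with 1 median over both panels, and it passed under 3 of them.

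miR-99a and miR-100 gave smaller changes. The Ct of miR-99a was 16.98 and 16.89 in the baseline pools, 15.3 in inflamed pool 1 and 18.2 in inflamed pool 2, so that the raw values of the groups overlapped. Its levels were -4.34 and -4.07 in the baseline pools and -2.71 and -2.29 in the inflamed pools, which did not overlap. The log2 change was 1.71 ± 0.73 (SE, adjusted p = 0.1201 by limma), and the sign was negative against each of the 3 control-RNA references, down to -1.15 with U6 alone. The Ct of miR-100 was 14.1 and 13.6 in the baseline pools, 12.9 in inflamed pool 1 and 15.2 in inflamed pool 2. Its levels were -1.51 and -0.75, then -0.31 and 0.69. The log2 change of miR-100 was 1.32 ± 0.80 (SE, adjusted p = 0.256 by limma), below 0 with the control-RNA references and with raw Ct. The 2 inflamed pools thus stood on opposite sides of the baseline Cts for both miRNAs. The panel medians of the inflamed pools, from which the levels are counted, differed by 3.36 cycles.

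The 2 miR-125 members gave unlike values. The Ct of miR-125b-5p was 6.44 and 6.89 in the baseline pools, and 4.77 and 5.72 in inflamed pools 1 and 2. Both inflamed pools again lay below both baseline ones in raw Ct. The mean level was 6.06 ± 0.19 at baseline and 8.97 ± 1.71 in inflamed tissue (SD, n = 2 pools each). The difference of 2.91 ± 1.00 (SE, adjusted p = 0.0814 by limma) was 7.51-fold. The change was above 0 under all 8 other normalizations, though only by 0.054 with U6 alone, and it passed under 0 of them. The Ct of miR-125a-5p moved the other way, from 6.318 and 6.496 to 6.82 and 7.33, with both inflamed pools later than both baseline pools. Later Cts were common: with raw Ct the median log2 change over all 209 assays was -1.43, and only 63 were above 0. The share of assays with both inflamed pools later was not counted. The levels of miR-125a-5p were 6.32 in each baseline pool, 5.72 in inflamed pool 1 and 8.58 in inflamed pool 2, so that the inflamed pools fell on both sides. The log2 change was 0.83 ± 1.09 (SE, adjusted p = 0.593 by limma), and it was -0.60 without inflamed pool 2 and -2.03 with U6 alone.

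**Figure D2:**
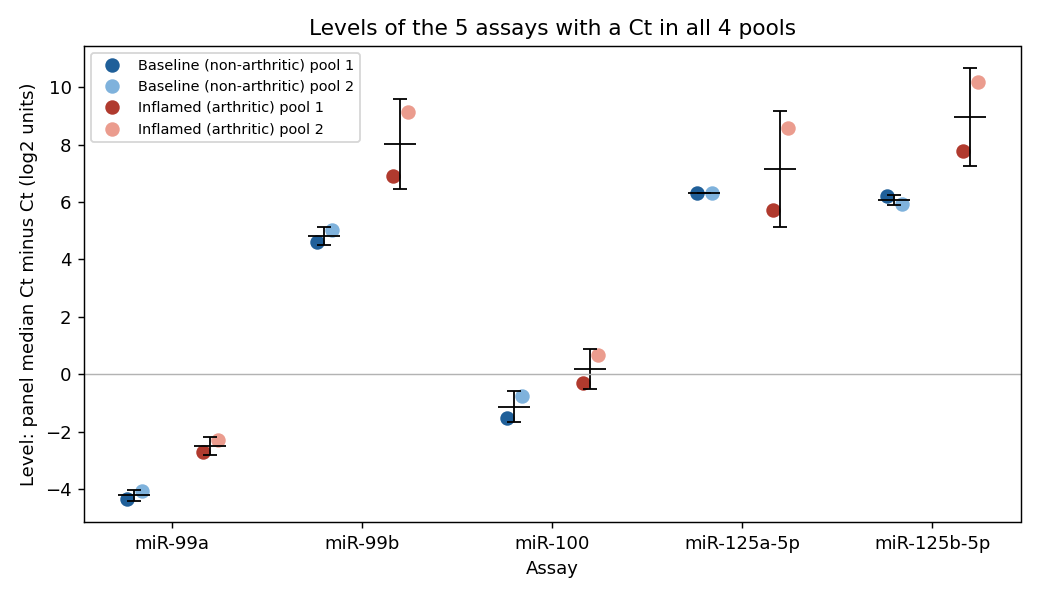
Level in log2 units (panel median Ct minus Ct) of the 5 tested assays, with 1 point per pool and the mean ± SD of each group in black. The inflamed points lie above the baseline ones for 4 assays and on both sides of them for miR-125a-5p.

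**Figure D3:**
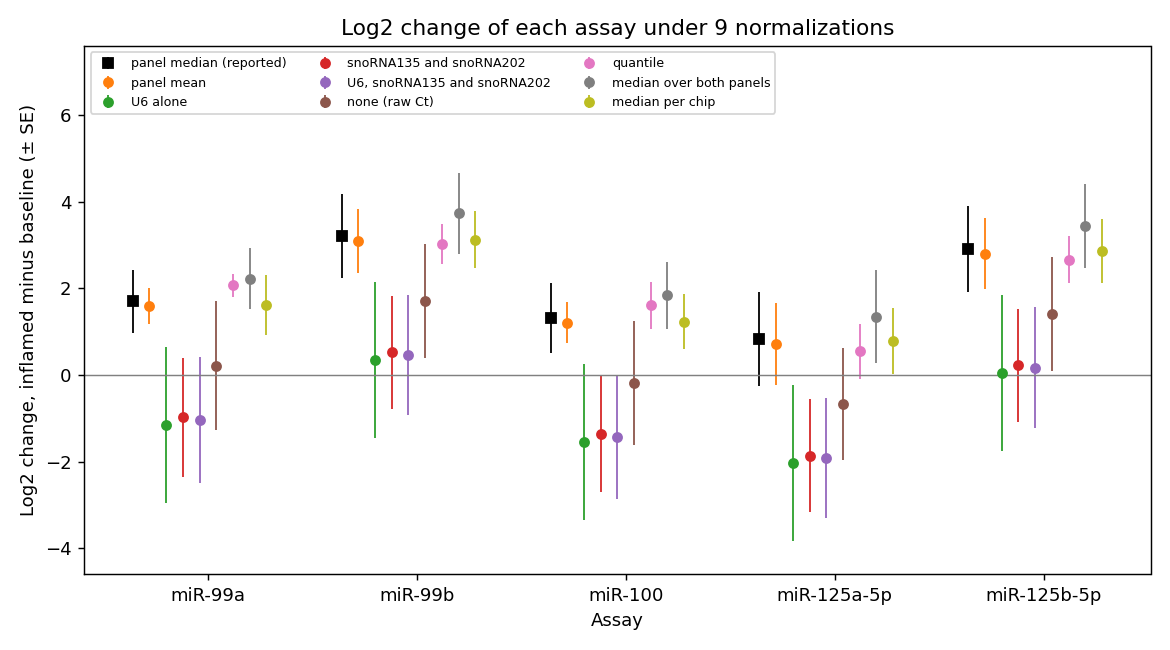
Log2 change (inflamed minus baseline) with its SE under the reported panel median (black square) and 8 other normalizations (circles). miR-99b and miR-125b-5p stay above 0 under all of them, while miR-99a, miR-100 and miR-125a-5p fall below 0 with the 3 control-RNA references.

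The control RNAs did not move together on panel A. U6 had Cts of 7.61 and 6.56 in the baseline pools and 5.78 and 5.67 in the inflamed pools, so that it came earlier in the latter. snoRNA135 came earlier too, at 18.6 and 19.6 against 22.004 and 22.46, while snoRNA202 came later, at 9.41 and 9.45 against 9.21 and 8.19. Each reference moved the median change of all 209 assays, from 0.19 with the panel median to -2.51 with U6 alone, -1.91 with the snoRNAs, -2.17 with all 3 control RNAs, -1.43 with raw Ct and 0.59 with 1 median over both panels. Taking a member's change relative to that median removes any shift that all assays share, so raw Ct and 1 median over both panels give identical distances and the 9 normalizations are not separate checks. The distance was 2.43 to 3.14 for miR-99b, 2.13 to 2.84 for miR-125b-5p, 0.93 to 1.90 for miR-99a, 0.54 to 1.45 for miR-100 and 0.047 to 0.76 for miR-125a-5p, in log2 units.

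The Ct of one member minus that of another in the same pool is the same under any reference taken over the whole panel, so 6 such differences were compared. miR-125a-5p minus miR-125b-5p, both read on chip A2, was -0.122 and -0.390 cycles in the baseline pools and 2.05 and 1.60 cycles in the inflamed pools. The groups did not overlap, and the difference moved by 2.08 cycles, from -0.256 ± 0.190 to 1.83 ± 0.313 (SD, n = 2 pools each). With the lower Ct of the 2 wells in place of their mean the move was 1.37 cycles, and the wells of miR-125a-5p in inflamed pool 1 lay 1.49 cycles apart. miR-99b minus miR-125a-5p, which share a cluster on chromosome 17 but were read on chips A4 and A2, went from 1.72 and 1.30 to -1.19 and -0.557 cycles, a shift of -2.38, again without overlap. By contrast miR-99a minus miR-100, the pair that differs by 1 base, was 2.83 and 3.32 cycles in the baseline pools and 2.40 and 2.98 cycles in the inflamed pools. These overlapped, with a shift of -0.390, which was -0.676 to -0.104 without 1 pool.

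miR-99a minus miR-99b moved by 1.504 cycles, from 8.94 and 9.10 to 9.63 and 11.4. miR-100 minus miR-125b-5p, from the chromosome 9 cluster, moved by 1.59 cycles, from 7.70 and 6.68 to 8.08 and 9.49. Neither overlapped, but most of each shift came from inflamed pool 2, and without it the shifts were 0.607 and 0.885. With the lower Ct of the 2 wells the miR-100 pair overlapped. miR-99a minus miR-125b-5p, from the chromosome 16 cluster, moved by 1.20 cycles with overlap, and by 0.209 to 2.19 without 1 pool. The exact permutation test over the 4 pools (two-sided) gave p = 0.333 for the 4 pairs without overlap and p = 0.667 for the other 2, or 0.5 and 0.667 adjusted over the 6 pairs. With 2 pools per group 0.333 is the smallest p it can give, so none of these differences could pass.

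**Figure D4:**
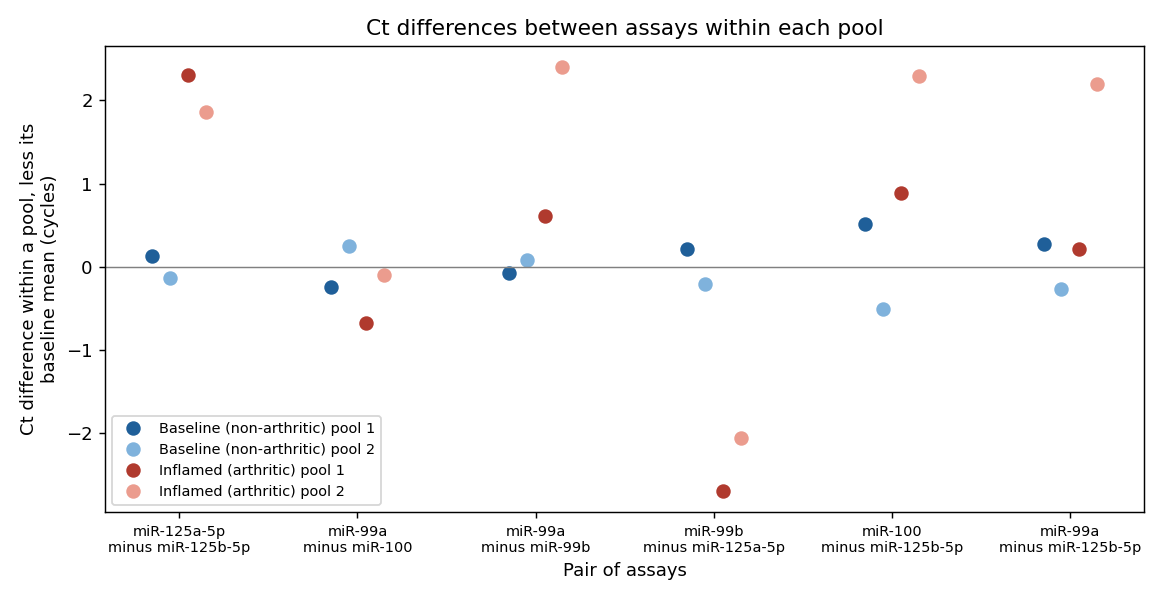
Ct of one assay minus Ct of another in the same pool, in cycles, less the baseline mean of that pair, with 1 point per pool. For miR-125a-5p minus miR-125b-5p both inflamed pools lie about 2 cycles above the baseline pools, and for miR-99a minus miR-100 the groups overlap.

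The opposite arms of miR-125a and miR-99b came later, or not at all, in the inflamed pools. The hairpin of miR-125a from RefSeq (GRCm38.p6, plus strand, chr17:17830812-17830879) is shown because both of its arms were on chip A2. Capitals mark the arms, miR-125a-5p first and miR-125a-3p after the loop.
Mir125a hairpin: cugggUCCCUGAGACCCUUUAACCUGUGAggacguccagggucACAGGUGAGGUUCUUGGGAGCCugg
miR-125a-3p had Cts of 19.3 and 18.9 in the baseline pools and 25.8 in inflamed pool 1, and gave no Ct in either well of inflamed pool 2. The 5′ arm crossed at 7.33 in inflamed pool 2. miR-125a-3p minus miR-125a-5p was thus 13.02 and 12.43 cycles in the baseline pools, 19.02 cycles in inflamed pool 1 and, taking the latest Ct of any well for the missing one, at least 19.7 cycles in inflamed pool 2. The mean distance was thus at least 6.62 cycles larger in the inflamed pools, if a well without a Ct lies beyond the highest one.

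Of the star assays, which are not members, hsa-miR-99b# reads the opposite arm of miR-99b under its human name. Its Ct was 18.2 and 16.9 in the baseline pools, 21.6 in inflamed pool 1 and 26.3, from 1 of 2 wells, in inflamed pool 2. Its 2 wells of inflamed pool 1 differed by 4.23 cycles. It fell with a log2 change of -4.53 ± 1.13 (SE, adjusted p = 0.0390 by limma), where 25 of the 209 assays passed as lower. The call was lost under 10 of 18 alternatives, fits without 1 pool included. With a Ct limit of 24 or 26, or a Ct required in both wells, hsa-miR-99b# was not tested. Leaving out either baseline pool was among the 10, with log2 changes of -5.20 and -3.87. So were raw Ct (adjusted p = 0.0735 by limma, with a log2 change of -6.41) and the mean or the quantiles of the panel (0.0762 and 0.0736). Further ones were the median per chip (0.145, with -2.01), the lower Ct of the 2 wells (0.145) and a Ct in 3 of 4 pools (0.0507). The rest were 1 well fewer on chip A3 (0.0562) and the ordinary linear model (0.226). Without inflamed pool 1 or 2 the log2 change was -5.91 or -3.16, with a spread from the 2 baseline pools alone. hsa-miR-99b# minus miR-99b, read on different panels, went from 10.1 and 9.14 to 16.0 and 19.5 cycles. For miR-99a, the rat-named rno-miR-99a# lay 6.19 and 7.76 cycles behind in the baseline pools and 10.1 cycles behind in inflamed pool 1. In inflamed pool 2 it gave no Ct, and the distance was at least 8.81 cycles. The level of rno-miR-99a# itself in inflamed pool 1, -8.81, lay between its baseline levels of -7.63 and -9.01. mmu-miR-125b-3p and mmu-miR-125b# each gave a Ct in 1 well, of baseline pool 1, at 26.6 and 24.5. rno-miR-125b# gave none. These comparisons of arms were chosen after the values were seen and carry no test of the difference between arms. Fewer assays of any kind gave a Ct in inflamed pool 2, 223 against 294 and 287 in the baseline pools, and the part of this in the late or missing Cts of the opposite arms was not tested.

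**Figure D5:**
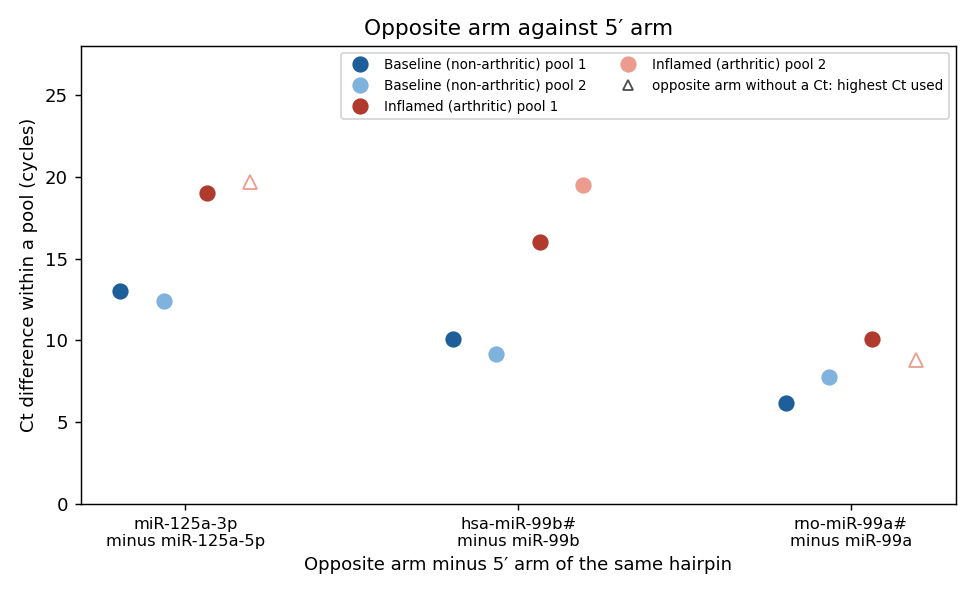
Ct of the opposite arm minus Ct of the 5′ arm of the same hairpin within each pool, in cycles. Open triangles use the highest recorded Ct for an opposite arm without one. For miR-125a and miR-99b the inflamed pools lie at 16.0 cycles or more, above the baseline pools at 13.02 or less.

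Among the cluster neighbours, let-7 miRNAs that restrain growth, let-7c and let-7e were tested and 0 of 2 passed. let-7e, between miR-99b and miR-125a on chromosome 17, had levels of -2.24 and -1.46 in the baseline pools and 0.042 and -0.18 in the inflamed pools. Its log2 change was 1.78 ± 0.75 (SE, adjusted p = 0.118 by limma). let-7c, beside miR-99a on chromosome 16 and also made from a second gene elsewhere, had a log2 change of 0.72 ± 0.73 (SE, adjusted p = 0.466 by limma). Both were below 0 with the control-RNA references, and let-7c with raw Ct. let-7a gave a Ct only in the inflamed pools, 17.7 and 26.4, and in no baseline well. Its star strand mmu-let-7a#, however, gave a Ct in all 4 pools, with a log2 change of -2.14 ± 1.47 (SE, adjusted p = 0.294 by limma). hsa-let-7e# gave no Ct. The star strand let-7c-1# had a log2 change of -0.50 ± 1.25 (SE), which was 1.38 with the median per chip. miR-10a and miR-10b, whose sequences resemble miR-100, had log2 changes of 2.35 ± 1.07 and, on chips A3 and B4, -0.46 ± 0.92 and -0.82 ± 0.92 (SE), and 0 of these 3 assays passed. For miR-10a the control-RNA references turned the sign, and the value was 1.03 to 3.67 without 1 pool. Both miR-10b values were above 0 with the median per chip.

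miR-351, which shares the miR-125 seed, was read by 2 assays. The rat-named assay gave Cts of 25.1 and 23.1 in inflamed pools 1 and 2 and none in the baseline wells. The mouse-named assay gave none in any of 8 wells.

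The assays whose levels ran most like the members' mean over the 4 pools were mmu-miR-223, hsa-miR-223 and mmu-miR-2134. Their Euclidean distances after centring were 0.46, 0.47 and 0.53 log2 units, against 0.95 to 1.40 for the 5 members themselves. miR-223 is a miRNA of neutrophils and other myeloid cells. Its mouse-named and human-named assays had log2 changes of 1.77 ± 0.85 and 1.89 ± 0.87, and miR-2134 one of 1.84 ± 1.02 (SE). None of these 3 passed (limma adjusted p = 0.150, 0.138 and 0.210). All 3 were below 0 with U6 alone. Without 1 pool they ranged from 0.99 to 2.54, from 1.12 to 2.65 and from 0.60 to 3.08. For miR-2134 the Ct stayed between 2.96 and 3.54 in the 4 pools, and 2 of its 8 wells stood at exactly 2.5, the lowest Ct of any well, so its level mostly follows the panel median. The mean Ct moved by only -0.012 cycles for hsa-miR-223 and -0.27 for mmu-miR-223, with overlap of the groups in raw Ct. Their level changes thus also came mostly from the panel medians.

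Summed levels of cell-type markers rose, fell or overlapped between the groups. The summed level of the 4 myeloid assays (miR-223 and both arms of miR-142) was 10.72 and 11.55 in the baseline pools and 12.26 and 13.78 in the inflamed pools, with 1 of 3 tested assays higher. A summed level is led by the assay with the earliest Ct, here hsa-miR-223, whose levels alone were 10.71, 11.54, 12.24 and 13.77 and whose raw Cts overlapped between the groups. That of the 5 fibroblast assays (miR-199 and miR-214) was 6.99 and 6.62, then 9.07 and 8.42, with 0 of 4 called. The tested fibroblast assays did not all rise. Log2 changes were 2.32 for mmu-miR-214, 1.93 for hsa-miR-214 and 1.68 for miR-199b, but -0.69 for miR-199a-3p. The 5 skeletal muscle assays went from 9.07 and 10.29 to 6.996 and 6.17. There 1 of 2 tested assays was lower, and mmu-miR-1 and mmu-miR-133b gave no Ct in the inflamed pools. The 3 smooth muscle assays went from 7.63 and 7.86 to 5.59 and 5.99 (1 of 3 lower). The 2 endothelial assays (both arms of miR-126) went from 9.12 and 9.51 to 6.68 and 7.21 (0 of 2 called), and the lymphoid miR-150 from 7.20 and 8.12 to 5.29 and 6.04 (0 of 1 called). Outside these lists, the endothelial-linked miR-296-5p went the other way, with a log2 change of 7.85 (adjusted p = 0.0042 by limma). Of lymphoid-linked assays outside them, miR-181a was at 2.43, and miR-181c, miR-342-3p and miR-191 were at -0.38, -2.34 and -1.71. The 3 erythroid assays stood at 0.81 and 1.61, then 0.98 and -0.61, with 0 of 1 called and hsa-miR-144 without a Ct in any pool and mmu-miR-486 without one in the inflamed pools. The 3 cartilage assays stood at 0.38 and -0.014, then 1.36 and -1.05, with 0 of 3 called. The only marker without a Ct in baseline pools alone was mmu-miR-199a-5p. The part of these shifts in the members' differences was not tested.

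Assays of similar Ct on panel A give a further setting for the members. The mean Ct that sets the range of an assay is over all 4 pools, the inflamed ones included. Members count in the medians of their own ranges. For the 19 assays with a mean Ct under 8, miR-99b, miR-125a-5p and miR-125b-5p among them, the median Ct in inflamed pool 2 was 2.14 cycles later than the baseline mean, and their median log2 change was 0.72, with a range from -2.38 to 4.05. For the 29 assays from 8 to 12, which hold no member, these were 2.54 cycles and 0.55. For the 45 assays with a mean Ct from 12 to 16, miR-100 among them, the median delay was 3.09 cycles and the median log2 change 0.15. For the 21 assays from 16 to 20, with miR-99a, these were 3.24 cycles and -0.38. The 20 assays from 20 to 30, again without a member, went the other way, with a delay of 1.32 cycles and a median log2 change of 2.17. In inflamed pool 1 their median Ct was 1.66 cycles earlier than the baseline mean. Only assays with a Ct in all 4 pools are counted, so late assays without a Ct in inflamed pool 2 are left out. Against that delay, the Ct of miR-99b in inflamed pool 2 was 1.15 cycles earlier than its baseline mean, that of miR-125b-5p 0.940 cycles earlier and that of miR-125a-5p 0.920 cycles later. The part of these differences between Ct ranges in the members' changes was not tested.

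The authors' deposited table, for which the sources used here state no normalization, lists 174 assays, with 5 of the 7 members. In the authors' deposited table the log2 differences between the arthritic and the non-arthritic mean were 3.06 for miR-99b, 2.76 for miR-125b-5p, 1.36 for miR-99a, 1.18 for miR-100 and 0.59 for miR-125a-5p. The median difference over the authors' deposited table was -0.045.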

How the data were processed

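Raw Ct values of 4 pools were read from the deposited chip sheets, 2 wells per assay on 8 chips. Per the labels, RNA was extracted with a mirVana kit and 500 ng were reverse transcribed. The deposited code 999 was read as no Ct, and 6 assay columns of the sheets were not used. Wells were averaged per pool. The level is the median Ct of the pool and panel, over the miRNA assays read in all 4 pools, minus the Ct, a log2 scale. The authors' deposited log2 table was used only for the values credited to it. The 2 groups were compared by the limma package, version 3.58.1 under R 4.3.3, with lmFit and eBayes, two-sided, and Benjamini-Hochberg adjustment over 209 assays. The procedure was tested on simulated data with 1 spread per assay for both groups. In the real data levels differed by a median of 0.52 between the baseline pools and 1.38 between the inflamed pools, a case the simulation did not cover. A pool counted as 1 replicate, and the labels call the pools biological replicates. With 2 pools per group the median SE of a log2 change was 0.87. The deposited values carry no read depth.

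The assays named are the members, their other arms, neighbours and seed mates, miR-10, and the 3 assays nearest to the members in level. Members and marker lists were chosen with earlier results of these data known. Sequences were matched by miRNA name. Alternatives changed the normalization, Ct limit, detection filter, wells, moderation, pairing, threshold and pools.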

Additional observations from a re-analysis of the deposited data

Results flagged for a closer look

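Both assays below gave a Ct only in arthritic wells and so took no part in the test. The rat-named miR-351 assay, with the seed of miR-125, averaged a Ct of 25.1 in pool 1 and of 23.1 in pool 2 of the arthritic synovium. The let-7a assay, whose miRNA has a gene between miR-100 and miR-125b on chromosome 9, averaged 17.7 and 26.4. The star-strand assay mmu-let-7a# gave a Ct in all 4 pools, those of baseline included.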

How the results depend on the processing

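The pools per group and the late Cts of inflamed pool 2 limit the precision. With U6, the snoRNAs or all 3 control RNAs as reference the log2 change was below 0 for miR-99a (-1.15, -0.98 and -1.04), miR-100 (-1.54, -1.37 and -1.42), miR-125a-5p (-2.03, -1.86 and -1.92), let-7c (-2.14, -1.97 and -2.02), let-7e (-1.08, -0.91 and -0.96), miR-10a (-0.51, -0.34 and -0.39) and mmu-miR-223 (-1.09, -0.92 and -0.98), and with U6 alone for hsa-miR-223 (-0.087) and miR-2134 (-0.14). With raw Ct it was -0.18 for miR-100, -0.67 for miR-125a-5p, -0.77 for let-7c and -0.036 for miR-2134. The cause was not tested. miR-99a passed with quantiles (2.07), where miR-2134 was at 0.00. miR-99b passed with quantiles (3.03), 1 median over both panels (3.73) and the median per chip (3.13). The sign turned for miR-10b on chip A3 with 1 median over both panels (0.063), the median per chip (0.40), the lower well (0.014) and with 1 well fewer on A3 for inflamed pool 2 (0.083), for miR-10b on chip B4 with quantiles (0.14) and the median per chip (1.06), and for let-7c-1# with the median per chip (1.38). Leaving out 1 pool gave 1.49 to 1.92 for miR-99a, 2.10 to 4.32 for miR-99b, 0.82 to 1.82 for miR-100, -0.60 to 2.26 for miR-125a-5p, 1.70 to 4.12 for miR-125b-5p, -1.47 to 0.55 for miR-10b on A3, -1.81 to 0.17 on B4 and -2.12 to 1.12 for let-7c-1#. The lone pool was assumed to vary like the others, though the median difference was 0.52 between the baseline pools and 1.38 between the inflamed pools. The 45 assays called became 25 with the panel mean, 8 with raw Ct, 0 with an ordinary linear model (92 had an unadjusted p under 0.05 by limma), 79 at an adjusted p of 0.10 and 12 to 113 without 1 pool. Of the 5 tested members, 2 passed with quantiles (48 of all assays) and 1 with 1 median over both panels (40 of all). With the median per chip 1 passed (34 of all), and 2 passed at 0.10. With a Ct required in only 3 of 4 pools, the member miR-125a-3p entered too and passed as lower, at -5.80. There 40 of 251 assays passed, and rno-miR-99a# was at -0.37. For both, the highest recorded Ct stood in for inflamed pool 2, so only 1 inflamed pool was measured. The labels number the pools but do not say that equal numbers share anything, and deviations of same-numbered pools correlated at 0.0738. With the pool number as a replicate block 66 assays passed, 2 members among them, miR-99b (3.21) and miR-125b-5p (2.91). In that fit the assays named here all had the same SE, 1.14. Its calls thus follow the size of the change and hold no spread of the single assay.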
